A study of Mus musculus with 19 samples.

Results

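The metastasis effects of 2 sorted bone marrow cell types were set against each other gene by gene: for which genes the change with bone metastasis differed between macrophages and Ly6C+ inflammatory monocytes, and for which it had the same sign and a like size. The arrays were chosen by their titles, and all 19 of the 19 arrays in the series entered, each with log2 expression values for 20998 genes. The groups were macrophages from healthy bone marrow (5 arrays), macrophages from marrow with breast cancer metastasis (5), monocytes from healthy marrow (5) and monocytes from marrow with metastasis (4). The metastases came from MetBo2, a clone of the mouse mammary tumour line Met-1 selected for homing to bone, of which 100000 cells had been injected into the heart of female mice 4 weeks old. The sources used here give neither the strain nor any pooling of mice, and no sort marker beyond Ly6C. Neither an age nor an injection is stated for the healthy mice, and no batch for any array, so age, injection, batch and tumour cannot be told apart. Nothing in the labels says that each array is a mouse of its own, and the p-values therefore measure the spread between these arrays only. The values are bulk levels, in which fewer cells of a type and less RNA per cell cannot be told apart.

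Ly6C+ monocytes leave the marrow through the receptor CCR2, enter inflamed tissues and tumours, and can mature there into macrophages. Macrophages and monocytes share many receptors for cytokines and microbial products, through which NF-kappaB, STAT and interferon pathways induce acute-phase proteins, chemokines and enzymes. In tumour-bearing mice the marrow itself is known to change its output of myeloid cells.

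The array medians lay between 4.45 and 4.55, and 4 Y-linked genes, which female mice lack, lay between 2.12 and 2.87 on all arrays and mark the background level. Against their labels, the macrophage arrays were not higher in the macrophage genes Adgre1 and Csf1r: Adgre1 averaged 7.34 ± 0.39 (SD, n = 5) in healthy macrophages and 7.96 ± 0.16 in healthy monocytes (n = 5), and Csf1r 9.45 ± 0.47 and 9.95 ± 0.13. The mean over 18 tissue macrophage genes was higher in macrophage arrays (5.52 to 6.07) than in monocyte arrays (5.13 to 5.34). The macrophage arrays also carried genes of neutrophil granules at high levels, with a mean over 16 maturing neutrophil genes of 9.37 to 9.92 in healthy marrow and 9.99 to 10.2 in metastasis, against 7.03 to 8.0 in monocyte arrays. The cell types are therefore called by their labels here, and a difference between them may involve other cells of each sort, whose part was not tested. Macrophages healthy replicate 1 and macrophages metastasis replicate 2 stood apart from their groups, correlating least with them, and the counts below are also given without such arrays.

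Few genes were shown to respond differently in the cell types, and somewhat more were called in both. By limma with Benjamini-Hochberg adjustment over all genes (adjusted p below 0.05), 13 genes (0.0619%) had a macrophage effect that differed from the monocyte effect. This difference of effects, the interaction, was positive in 6 genes (0.0286%) and negative in 7 (0.0333%). It is the macrophage effect minus the monocyte effect with signs kept. A positive value can therefore also come from a fall in monocytes, and a negative value from a fall in macrophages. The median SE of the interaction (0.165) was larger than that of the effect in macrophages (0.113) or monocytes (0.12). A low count of interaction calls therefore does not show that most effects are alike. In macrophages 259 genes (1.23%) differed between metastasis and healthy marrow, and in monocytes 108 (0.514%). That balance turned with array weights (134 and 328) and with a weight per cell type (108 and 311). The model gave each gene 1 spread shared by all 4 groups, so its SEs do not show whether 1 cell type varied more. The median SD over genes was 0.198 in healthy and 0.171 in metastasis macrophages, and 0.14 and 0.135 in monocytes. The weight per cell type was 0.765 for macrophages and 1.35 for monocytes. The 259 and 108 calls therefore do not show which cell type responded more widely. With 1 array left out the macrophage count ran from 153, without macrophages metastasis replicate 4, to 546, without macrophages healthy replicate 5, and the monocyte count from 61, without monocytes metastasis replicate 3, to 151, without macrophages healthy replicate 1. Of the 259 and 108 genes, 25 (0.119% of all genes) were called in both with the same sign, 20 higher (0.0952%) and 5 lower (0.0238%) in metastasis, which made up 9.65% of the macrophage calls and 23.1% of the monocyte calls. None was called in both with opposite signs. The effects correlated across the 20998 genes with Pearson's r = 0.264 and Spearman's rho = 0.162. This is a description over genes, which are not independent replicates. The effects share no array, and the labels do not say whether they share mice. Over all genes 55.2% had the same sign in both cell types. With each array left out in turn the interaction calls numbered from 4 to 48 and the shared calls from 12 to 36. The 48 came without macrophages healthy replicate 5, and the 36 without macrophages metastasis replicate 2. The interaction calls fell to 4 without macrophages healthy replicate 2 or 3, monocytes healthy replicate 1 or monocytes metastasis replicate 2. Without the array least like its group in each group there were 14 interaction calls and 27 shared calls, with 6 and 18 of the reported genes among them, a setting chosen after the data were seen.

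**Figure D1:**
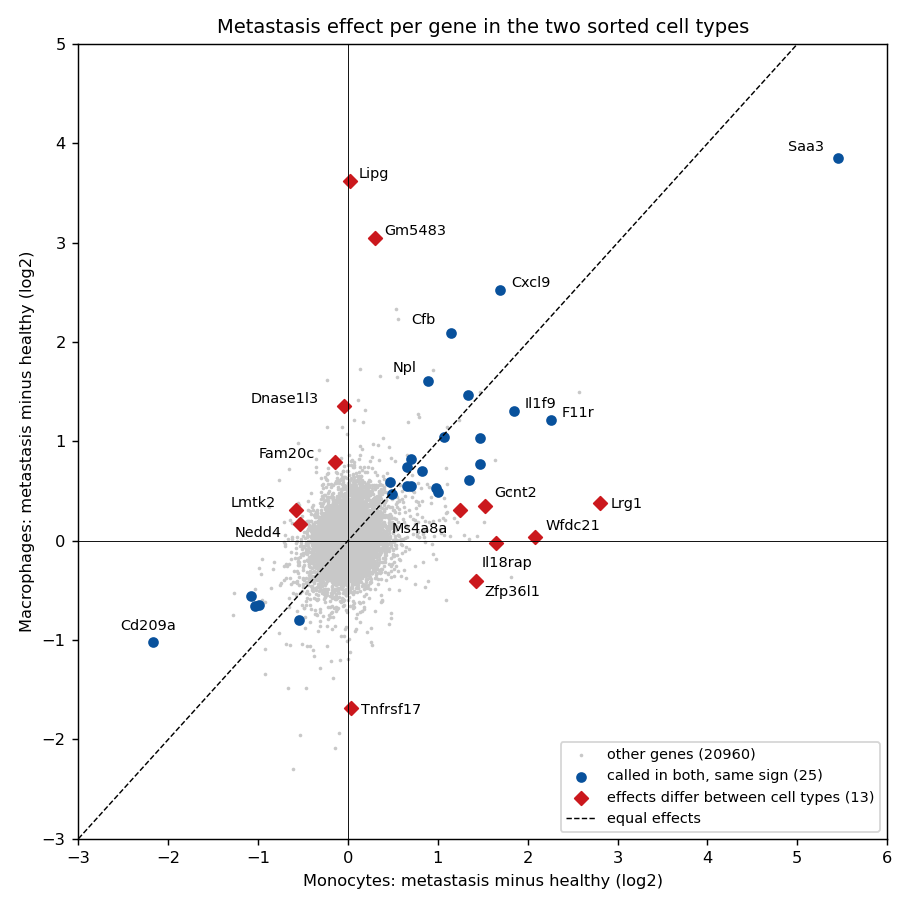
Each point is 1 of 20998 genes, with the log2 difference between metastasis and healthy marrow in monocytes on the x axis and in macrophages on the y axis; the dashed line marks equal effects. Of the 13 genes whose effects differed (red diamonds), Lipg (3.62 in macrophages, 0.02 in monocytes) and Lrg1 (0.38 and 2.81) lie near one of the axes, while the 25 shared genes (blue) lie in the upper right and lower left quadrants, with Saa3 farthest out.

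Lrg1, the gene of a leucine-rich glycoprotein secreted in the acute-phase response, showed the interaction with the smallest adjusted p. In healthy monocytes its log2 level was 5.10, 5.31, 5.04, 5.56 and 5.25 on the 5 arrays, and in monocytes from metastasis 7.77, 7.51, 8.75 and 8.20 on the 4. In healthy macrophages it was 9.35, 9.79, 9.98, 9.95 and 10.00, and in macrophages from metastasis 10.23, 10.07, 10.23, 10.27 and 10.16. The monocyte groups were far apart, while the macrophage groups, though they did not overlap, lay close together near the top of the gene's range. Lrg1 rose 6.99-fold in monocytes (log2 2.81 ± 0.18, SE), stood at 0.38 ± 0.17 in macrophages, and its interaction was -2.43 ± 0.25 (limma adjusted p = 4.8e-05). The macrophage level exceeded the monocyte level by 4.56 log2 units in healthy marrow and by 2.13 in metastasis.

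A further 5 genes rose in monocytes and differed from macrophages, the last of them Zfp36l1. Wfdc21, which encodes a small secreted protein of the WAP domain family, was at 6.72 to 7.85 in healthy monocytes and at 8.82, 8.98, 10.64 and 9.15 in metastasis. In macrophages it lay between 11.44 and 12.13 in both kinds of marrow, close to the highest value of any gene on any array, 12.6; whether the upper end of the array's range limits a change there was not tested. Its monocyte effect was 2.08 ± 0.28 (SE), its macrophage effect 0.04 ± 0.26 and its interaction -2.04 ± 0.38 (limma adjusted p = 0.0422). Il18rap, the accessory chain of the interleukin-18 receptor, went from a median of 4.55 in healthy monocytes to values of 5.29, 6.53, 6.67 and 5.99, and stayed between 7.81 and 8.74 in all macrophages (interaction -1.68 ± 0.31, adjusted p = 0.0397). Gcnt2, a glycosyltransferase that builds branched sugar chains, rose 2.88-fold in monocytes, from 4.35 to 4.92 up to 5.88 to 6.46, against 1.28-fold in macrophages, whose groups overlapped (interaction -1.18 ± 0.21, adjusted p = 0.0392). Ms4a8a, a membrane protein of the MS4A family, rose by 1.25 ± 0.12 in monocytes and stood at 0.31 ± 0.11 in macrophages (interaction -0.93 ± 0.17, adjusted p = 0.0392). Of these genes, Ms4a8a alone was lower in healthy macrophages (4.10 ± 0.07, SD, n = 5) than in healthy monocytes (4.99 ± 0.16, n = 5), and its gap widened in metastasis.

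Zfp36l1, an RNA-binding protein that speeds the decay of AU-rich messages, had effects of opposite sign. In monocytes it rose from 6.27, 7.12, 6.57, 6.60 and 6.30 to 7.24, 8.05, 9.02 and 7.66, a change of 1.42 ± 0.24 (SE). In macrophages it went from 8.58, 8.55, 8.24, 8.43 and 8.21 to 7.63, 8.15, 7.83, 8.16 and 8.20, which did not pass (-0.41 ± 0.23, limma adjusted p = 0.443), although no array of one group overlapped the other. The interaction was -1.83 ± 0.33 (adjusted p = 0.0392), and the 1.83 log2 units by which macrophages stood above monocytes in healthy marrow came to 0.00 in metastasis. Zfp36l1, Fam20c and Bex6 were the 3 genes (0.0143%) whose groups were apart in both cell types in opposite directions, against 58 genes (0.276%) apart in the same direction. Some of these separations were close to a tie. The lowest healthy and highest metastasis values were 5.4077 and 5.4073 for Fam20c in monocytes. For Zfp36l1 in macrophages they were 8.21 and 8.20. Bex6 stood at 0.61 ± 0.20 in macrophages and at -0.77 ± 0.21 in monocytes (interaction 1.38 ± 0.29, adjusted p = 0.0718).

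Lipg, which encodes endothelial lipase, a secreted enzyme that cleaves lipoprotein phospholipids, showed the largest interaction of the 13. Its log2 level in healthy macrophages was 3.66, 3.85, 3.12, 3.33 and 4.08, and in macrophages from metastasis 7.16, 6.15, 6.57, 8.06 and 8.19. In healthy monocytes it was 3.17, 2.92, 2.91, 2.99 and 2.86, and in monocytes from metastasis 3.30, 2.72, 3.37 and 2.58. The macrophage groups were far apart, and the monocyte values lay between 2.58 and 3.37 in both kinds of marrow, around the highest Y-linked value of 2.87. Lipg rose by 3.62 ± 0.29 (SE) in macrophages and stood at 0.02 ± 0.31 in monocytes (interaction 3.60 ± 0.42, limma adjusted p = 0.000263).

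Dnase1l3, a secreted DNase that digests chromatin released from dying cells, was also near background in monocytes. It rose in macrophages from 3.52, 2.84, 3.29, 3.01 and 2.99 to 4.47, 4.15, 4.83, 4.63 and 4.33, and in monocytes lay between 2.53 and 3.05 on all 9 arrays. The interaction was 1.40 ± 0.20 (SE, limma adjusted p = 0.00356). Gm5483, a predicted gene whose current RefSeq symbol is Cstdc4, was named after its values were seen. It went from 2.82 to 3.09 in healthy macrophages up to 6.36, 4.34, 6.69, 6.48 and 6.15, while monocytes went from 2.79 to 3.19 in healthy marrow to 2.20, 3.29, 4.34 and 3.16 (interaction 2.74 ± 0.50, adjusted p = 0.0392). Fam20c, a Golgi kinase that phosphorylates secreted proteins, rose by 0.79 ± 0.12 in macrophages and stood at -0.15 ± 0.13 in monocytes (interaction 0.94 ± 0.17, adjusted p = 0.0392). For Lipg, Dnase1l3 and Gm5483 some monocyte arrays were at or below 2.87, the highest Y-linked value, and others above it. Whether the background level hid a change in monocytes was not tested.

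The other positive interactions, of Nedd4 and Lmtk2, came from falls in monocytes. Nedd4, a ubiquitin ligase, fell from 4.80, 4.80, 4.80, 4.85 and 4.88 to 4.32, 4.39, 4.11 and 4.35 in monocytes (-0.54 ± 0.09, SE), and lay between 7.91 and 8.41 in macrophages (0.16 ± 0.09). Its interaction was the smallest of the 13, 0.70 ± 0.13 (limma adjusted p = 0.0392), on monocyte arrays with an SD of 0.04 in healthy and 0.12 in metastasis marrow. Lmtk2, a membrane-anchored kinase, fell by 0.58 ± 0.12 in monocytes and stood at 0.31 ± 0.11 in macrophages (interaction 0.89 ± 0.17, adjusted p = 0.0415).

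Tnfrsf17 was the only gene of the 13 called lower in macrophages. It encodes BCMA, a receptor by which plasma cells receive survival signals. Its log2 level in macrophages went from 5.00, 5.18, 4.94, 5.75 and 5.90 to 4.00, 3.70, 3.57, 3.47 and 3.60, and in monocytes it lay between 3.26 and 4.07 in both kinds of marrow. After the fall the macrophage arrays lay within the monocyte range (interaction -1.72 ± 0.25, SE; limma adjusted p = 0.00523). Of 17 genes of B lineage and plasma cells, which include Tnfrsf17 and Jchain, 7 fell in macrophages and none in monocytes. The shares over all genes were 0.595% and 0.119%, and the list medians were -0.61 and -0.13. The mean level of that list was 6.06 to 6.43 in healthy macrophages, 5.09 to 5.96 in macrophages from metastasis, 4.16 to 4.34 in healthy monocytes and 4.15 to 4.22 in monocytes from metastasis. Jchain, the joining chain of secreted antibodies, fell from 10.34 ± 0.14 to 8.26 ± 0.92 (SD, n = 5 each) in macrophages. In monocytes it lay between 2.38 and 3.19, at or near background. Its interaction of -1.93 ± 0.40 did not pass (adjusted p = 0.0718), but did without macrophages metastasis replicate 2, whose Jchain level of 9.88 lay close to the healthy arrays (-2.34). The part of plasma cells in the fall of Tnfrsf17 was not tested.

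**Figure D2:**
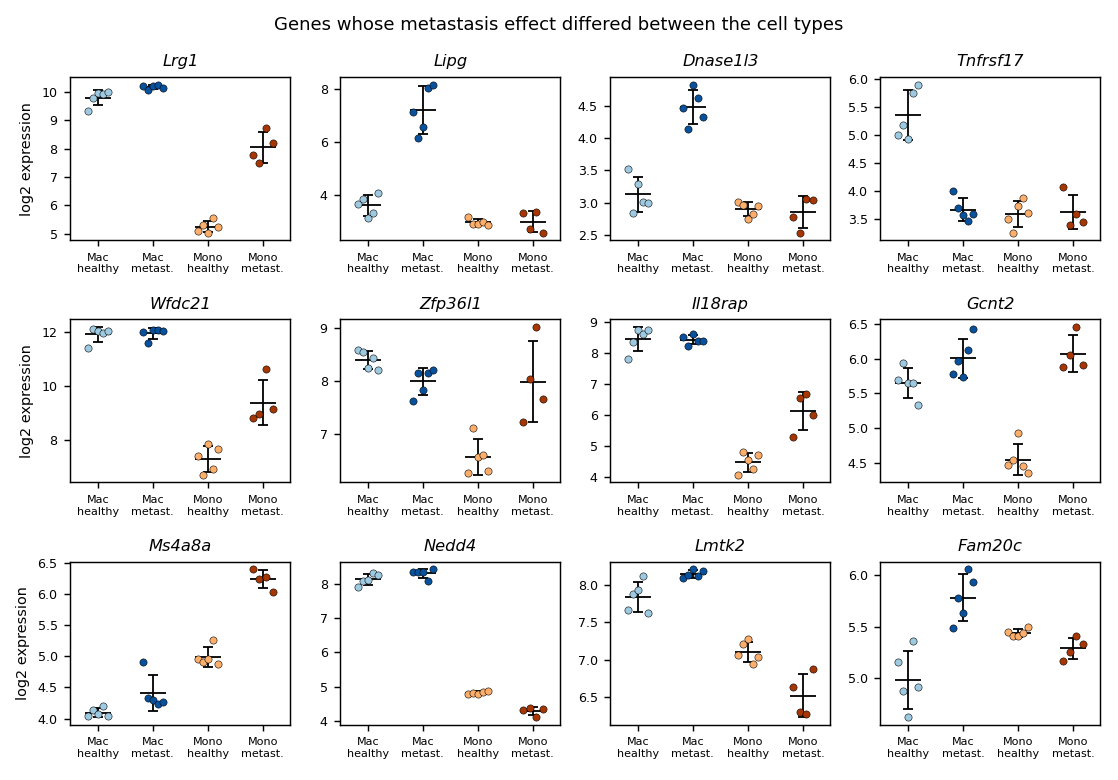
Log2 expression on each array (points) for 12 of the 13 genes whose metastasis effect differed between the cell types, in healthy and metastasis macrophages (blue, 5 arrays each) and healthy and metastasis monocytes (orange, 5 and 4 arrays); bars are the mean and SD. In Lrg1, Wfdc21 and Il18rap the monocytes move towards a high macrophage level, in Lipg and Dnase1l3 the macrophages leave a level near background that the monocytes keep, and in Tnfrsf17 the macrophages fall to the level of the monocytes.

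The evidence behind these 13 genes was unequal. Lrg1, Lipg, Tnfrsf17 and Dnase1l3 kept their calls in all 19 fits that left out 1 array, with adjusted p-values of at most 0.0168. Dnase1l3 averaged 4.48 in macrophages from metastasis, below the floor of 4.51 of a filter on dim genes. The fit with that filter therefore did not test it. The other 9 genes lost theirs in 13 to 16 of the 19 fits, with adjusted p-values up to 0.122 for Lmtk2 without monocytes metastasis replicate 3, and no value changed sign. All 13 had no overlap between healthy and metastasis arrays in the cell type with the larger effect, beside 1.93% of all genes in macrophages and 5.41% in monocytes. The calls, the choice of cell type and the overlap come from the same arrays, so this is no separate evidence. Of the 13, 5 were called in macrophages and 8 in monocytes, and none in both. The gap between the cell types became smaller in metastasis in 6 genes and larger in 7. A further 25 genes had an interaction with an adjusted p between 0.05 and 0.1, 7 positive and 18 negative, and before adjustment 1653 genes (7.87%) fell below 0.05. Among them was Xcl1, a chemokine gene of T and NK cells, at 1.62 ± 0.25 (SE) in macrophages and -0.24 ± 0.26 in monocytes (interaction 1.86 ± 0.36, limma adjusted p = 0.0521). It passed without macrophages healthy replicate 5 (1.79) and without macrophages metastasis replicate 3 (2.13). Of bone-related genes, Acp5, the tartrate-resistant phosphatase of osteoclasts, stood at -0.21 ± 0.10 in macrophages and rose by 0.51 ± 0.11 in monocytes. Spp1, which encodes osteopontin, stood at 0.31 ± 0.11 and -0.44 ± 0.11, and both interactions missed the threshold (-0.72 ± 0.15 and 0.75 ± 0.16, adjusted p = 0.0718). Over the 12 osteoclast genes, which include Acp5, the medians were -0.08 in macrophages and -0.06 in monocytes. Of these, 1 fell in macrophages, and 1 rose and 1 fell in monocytes, beside 0.595%, 0.395% and 0.119% of all genes. The osteoclast gene Itgb3 fell in both cell types. Over 16 stromal and bone-forming genes, which include Spp1, none passed, and the medians were -0.03 and -0.05.

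The 20 shared rises are given first, and the 5 shared falls after them. Saa3, a serum amyloid A gene that in mice is made outside the liver, including by macrophages, had the largest shared rise. Its log2 level went from 3.81, 3.94, 3.63, 4.05 and 3.63 to 8.66, 6.06, 8.49, 8.01 and 7.09 in macrophages, and from 4.41, 5.31, 3.78, 3.84 and 4.45 to 8.69, 9.60, 10.72 and 10.24 in monocytes. The groups were far apart in both cell types, with macrophages metastasis replicate 2 the lowest of its group. The rise was 3.85 ± 0.41 (SE) in macrophages and 5.46 ± 0.43 in monocytes, and the difference, -1.61 with a 95% interval from -2.84 to -0.38, did not pass over all genes (limma adjusted p = 0.487).

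Il1f9, a cytokine gene of the interleukin-1 family, rose from 5.16, 6.29, 6.13, 6.14 and 6.25 to 7.33, 6.80, 7.06, 7.61 and 7.69 in macrophages. In monocytes it rose from 4.50, 5.03, 5.11, 4.69 and 5.03 to 6.95, 6.49, 6.87 and 6.56. Healthy macrophages began about 1 log2 unit above healthy monocytes, and the effects were 1.30 ± 0.20 and 1.85 ± 0.21 (SE). Lbp, the lipopolysaccharide-binding protein of the acute-phase response, rose from a range of 9.01 to 9.68 up to 9.79 to 10.04 in macrophages and from 7.78 to 8.10 up to 8.73 to 9.08 in monocytes. Its effects of 0.54 ± 0.11 and 0.98 ± 0.12 differed by -0.45 (95% interval -0.78 to -0.11). F10, coagulation factor X, rose by almost the same amount in both, 0.47 ± 0.08 and 0.48 ± 0.09, with groups of little spread (SD 0.15 and 0.06 in macrophages, 0.08 and 0.10 in monocytes). Saa3, Il1f9, Lbp and F10 kept their calls in both cell types in every fit that left out 1 array.

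**Figure D3:**
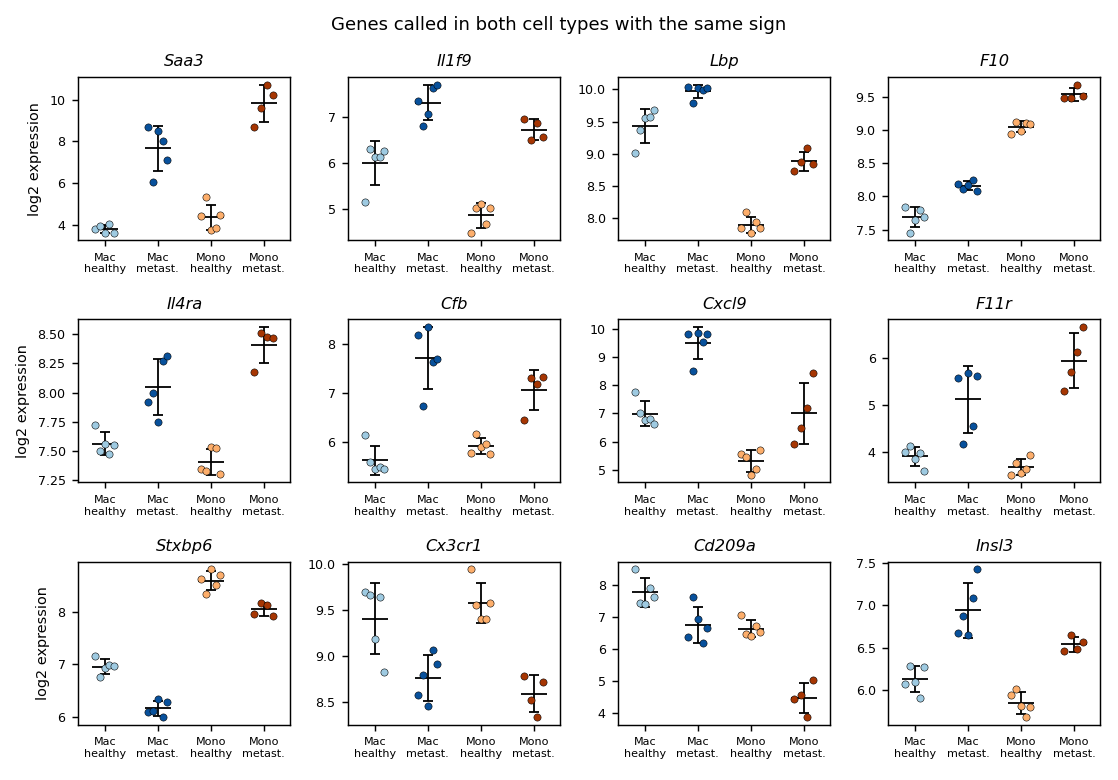
Log2 expression on each array (points) for 12 of the 25 genes called in both cell types with the same sign, in the 4 groups of macrophages (blue) and monocytes (orange); bars are the mean and SD. The first 8 genes and Insl3 are higher in metastasis in both cell types, and Stxbp6, Cx3cr1 and Cd209a are lower.

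Receptors and other immune genes were also among the shared rises. Il4ra, the alpha chain of the interleukin-4 receptor, rose by 0.49 ± 0.10 (SE) in macrophages and by 1.00 ± 0.11 in monocytes. Fcgr1, the high-affinity IgG receptor, rose by 0.78 ± 0.19 and 1.46 ± 0.20, and Csf2rb2, the mouse beta chain specific to the interleukin-3 receptor, by 0.70 ± 0.15 and 0.83 ± 0.16. Tarm1, an activating receptor of myeloid cells, rose by 1.03 ± 0.22 and 1.46 ± 0.24. Among secreted immune proteins, Cxcl9, a chemokine induced by interferon gamma, rose by 2.52 ± 0.34 and 1.69 ± 0.37, and Cfb, complement factor B, by 2.09 ± 0.23 and 1.15 ± 0.24. Cxcl9 varied widely among the monocytes from metastasis, at 5.92, 6.48, 7.19 and 8.43, against at most 5.71 in healthy monocytes. Its monocyte call was lost in 6 of 19 fits that left out 1 array, with an adjusted p of 0.136 without monocytes metastasis replicate 3. Socs3, a feedback inhibitor of cytokine signalling, rose by 0.55 ± 0.14 and 0.66 ± 0.14. It lost its macrophage call in 13 of those fits and its monocyte call in 6. The macrophage call of Fcgr1 was lost in 15, with an adjusted p up to 0.1 without macrophages metastasis replicate 3, those of Tarm1, Csf2rb2 and Il4ra in 5, 4 and 3, and the monocyte calls of Cfb and Csf2rb2 in 6 and 1.

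The shared rises also held genes of adhesion, matrix and metabolism. F11r, a junctional adhesion molecule, went from 3.59 to 4.12 up to 5.57, 4.16, 5.68, 4.54 and 5.62 in macrophages and from 3.51 to 3.94 up to 5.28, 5.69, 6.12 and 6.66 in monocytes (1.21 ± 0.26 and 2.26 ± 0.27, SE). Vcan, which encodes the matrix proteoglycan versican, rose by 1.47 ± 0.26 and 1.33 ± 0.27, and the matrix protease gene Mmp19 by 0.55 ± 0.13 and 0.70 ± 0.14. Npl, an enzyme that breaks down sialic acid, rose by 1.60 ± 0.17 and 0.89 ± 0.18, and the glucose transporter gene Slc2a1 by 0.59 ± 0.09 and 0.47 ± 0.10. Ier3, an immediate early gene, rose by 0.62 ± 0.13 and 1.35 ± 0.14. Insl3, a hormone gene of the relaxin family, rose by 0.82 ± 0.12 and 0.70 ± 0.13, Mrpl52, a mitochondrial ribosomal protein, by 0.74 ± 0.14 and 0.66 ± 0.15, and AW112010 by 1.04 ± 0.21 and 1.07 ± 0.22. Of these calls, that of Mmp19 in macrophages was lost in 12 of the 19 fits that left out 1 array, that of F11r in 3 and that of Ier3 in 1. The monocyte calls were lost in 8 fits for Mrpl52, 7 for Slc2a1, 6 for AW112010, 4 each for Npl and Vcan, 2 for Mmp19 and 1 for Insl3.

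The 5 shared falls were in Cd209a, Itgb3, Mtss1, Cx3cr1 and Stxbp6. Cd209a, a C-type lectin of the DC-SIGN family found on dendritic cells and some monocytes, fell from 7.07, 6.47, 6.42, 6.72 and 6.54 to 4.42, 4.57, 3.87 and 5.02 in monocytes. In macrophages it went from 8.52, 7.45, 7.41, 7.91 and 7.65 to 6.37, 7.63, 6.94, 6.21 and 6.67, where metastasis replicate 2 overlapped the healthy arrays. The effects were -1.02 ± 0.24 (SE) in macrophages and -2.17 ± 0.26 in monocytes. Cx3cr1, the fractalkine receptor, which is higher on Ly6C-low than on Ly6C-high monocytes, stood at -0.64 ± 0.16 and -0.99 ± 0.17, and the integrin gene Itgb3 at -0.56 ± 0.13 and -1.08 ± 0.14. Mtss1, which binds actin and membranes, fell by 0.66 ± 0.14 and by 1.04 ± 0.15. Stxbp6, a syntaxin-binding protein, fell by 0.80 ± 0.10 in macrophages and by 0.55 ± 0.11 in monocytes, with no overlap in either. The macrophage calls of Cx3cr1 and Itgb3 were lost in 15 and 14 of the 19 fits that left out 1 array, with adjusted p-values up to 0.117 and 0.106, that of Cd209a in 11 and that of Mtss1 in 5, and the monocyte call of Stxbp6 was lost in 1.

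For size, the shared genes were read by the 95% interval of their interaction, since a missed threshold does not show that effects are alike. In 15 of the 25 the interval lay wholly within 1 log2 unit of 0, so that the effects agreed within 2-fold, and in 8 it lay within 1.5-fold. Over all genes 96.7% had an interval within 2-fold, most of them genes with small effects in both cell types, and the count of 15 is to be read against that share. The other 10 were not resolved, and none passed the interaction threshold. The effects of F10 (difference -0.01, 95% interval -0.26 to 0.24), Insl3 (0.12, -0.25 to 0.49) and Slc2a1 (0.13, -0.16 to 0.41) agreed most closely by their intervals. Of the 25, 17 had a larger effect in monocytes and 8 in macrophages. Intervals that excluded 0 before adjustment were found in 8 genes with the larger effect in monocytes (Saa3, F11r, Ier3, Fcgr1, Il4ra, Lbp, Itgb3 and Cd209a) and 2 with the larger effect in macrophages (Cfb and Npl). Ier3 alone passed the interaction threshold in 1 fit that left out an array, without monocytes healthy replicate 2 (-0.86). In 17 of the 25 the arrays did not overlap in either cell type, beside 0.276% of all genes; the calls and the overlap come from the same arrays. Without macrophages metastasis replicate 2, 27 shared genes agreed within 2-fold, and without monocytes metastasis replicate 2 only 6 did.

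**Figure D4:**
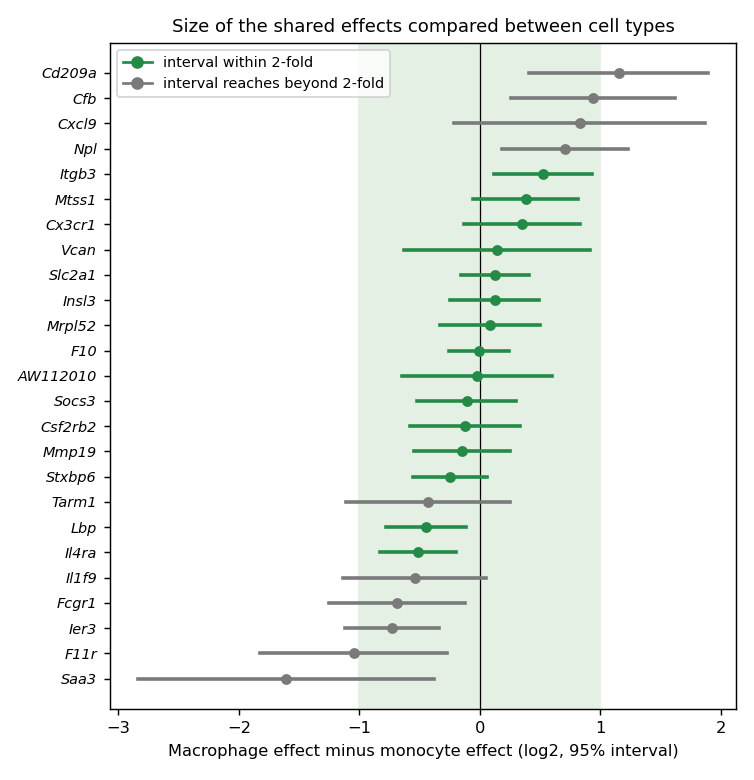
The macrophage effect minus the monocyte effect (log2, points) with its 95% interval (lines) for the 25 shared genes; the shaded band marks a difference of less than 2-fold. For 15 genes (green) the interval lies inside the band, and for 10 (grey) it reaches beyond it; for the 5 genes that fell, a positive value means the deeper fall was in monocytes, except for Stxbp6, whose value is negative.

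Promoter sequences are shown for 3 shared genes whose windows held a searched motif and for Lrg1, the gene whose interaction had the smallest adjusted p. Each is the 250 bases before the gene's start, 5′ to 3′ on the gene's strand, from RefSeq on GRCm38.p6, with motif matches in capitals. Those of Saa3 (chr7:46715677-46715926, minus strand), Il1f9 (chr2:24186226-24186475, plus strand), Socs3 (chr11:117969367-117969616, minus strand) and Lrg1 (chr17:56121947-56122196, minus strand) are as follows.
Saa3: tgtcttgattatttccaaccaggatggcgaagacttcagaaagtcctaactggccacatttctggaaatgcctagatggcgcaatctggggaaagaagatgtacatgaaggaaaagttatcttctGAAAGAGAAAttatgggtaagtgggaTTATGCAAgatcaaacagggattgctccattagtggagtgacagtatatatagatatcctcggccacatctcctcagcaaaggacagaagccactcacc
Il1f9: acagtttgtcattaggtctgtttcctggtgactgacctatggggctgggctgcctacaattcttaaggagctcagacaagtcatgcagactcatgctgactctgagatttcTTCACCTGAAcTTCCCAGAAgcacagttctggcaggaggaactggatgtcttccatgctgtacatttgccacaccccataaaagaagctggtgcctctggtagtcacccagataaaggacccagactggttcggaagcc
Socs3: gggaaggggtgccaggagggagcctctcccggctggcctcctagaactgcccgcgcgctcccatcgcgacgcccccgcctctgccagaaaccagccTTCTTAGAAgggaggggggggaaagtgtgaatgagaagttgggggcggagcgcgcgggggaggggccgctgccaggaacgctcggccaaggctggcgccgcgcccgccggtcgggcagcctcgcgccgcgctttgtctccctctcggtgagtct
Lrg1: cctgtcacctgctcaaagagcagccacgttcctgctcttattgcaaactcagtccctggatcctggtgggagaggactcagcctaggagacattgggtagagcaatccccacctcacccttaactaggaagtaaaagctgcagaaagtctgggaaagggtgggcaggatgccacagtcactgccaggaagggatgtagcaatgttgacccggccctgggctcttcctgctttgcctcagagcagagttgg

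Both strands were searched for 4 motifs: the STAT dimer site TTCNNNGAA, a STAT6-type site, the core of the interferon response element and the C/EBP site TTGCNNAA. In Saa3 the capitals mark an interferon response element core 125 to 116 bases before the start and a C/EBP match 99 to 92 bases before it. In Il1f9 they mark a STAT6-type match at 139 to 130 bases and a STAT dimer match at 128 to 120 bases, and in Socs3 a STAT dimer match at 154 to 146 bases. The Lrg1 window held none of these letters. Of the 25 shared genes 20 had a promoter in the table, and 4 of them (20%), Socs3, Il1f9, Fcgr1 and Csf2rb2, held a STAT dimer match. Of the 13 interaction genes 10 had a promoter, and 3 of them (30%), Gcnt2, Nedd4 and Gm5483, held one. Among 27025 genes with a promoter 8.13% held a STAT dimer match, 6.76% a STAT6-type match, 3.46% an interferon response element core and 10.8% a C/EBP match. The other 3 motifs were each in 1 gene of either set.

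A call in only one cell type did not by itself show a difference. Of the 234 genes called in macrophages and not in monocytes, 5 passed the interaction threshold, and in 144 the interval of the interaction lay within 2-fold. Of the 83 called in monocytes and not in macrophages, 8 passed and 35 lay within 2-fold. The remaining 85 and 40 genes showed neither. Over all genes 96.7% lay within 2-fold. That bound is wider than the median rise called in macrophages (0.62) or monocytes (0.90), so lying within it does not show equal effects. Where a gene was called in 1 cell type, alone or in both, its value in the other mostly had the same sign. The counts and medians that follow include the 25 shared calls, 20 rises and 5 falls, whose signs agree by definition. Of 134 genes that rose in macrophages (0.638% of all genes), 113 (84.3%) had a positive value in monocytes, with a median of 0.17 against 0.62 in macrophages. Of 83 that rose in monocytes (0.395%), 77 (92.8%) had a positive value in macrophages, with a median of 0.31 against 0.90. Of 125 that fell in macrophages (0.595%), 103 (82.4%) were negative in monocytes (median -0.17), and of 25 that fell in monocytes (0.119%), 20 (80%) were negative in macrophages (median -0.26). Over all genes the monocyte effect was positive in 46.7% and the macrophage effect in 50.6%.

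The mean of both effects rests on all 19 arrays. Its median SE (0.08) was smaller than that of the effect in macrophages (0.11) or monocytes (0.12). The model took macrophage and monocyte arrays as independent, and the labels do not say whether both came from the same mice. If they did, the SEs of the mean and of the interaction may be wrong. On the mean of both effects 359 genes (1.71%) passed with the same sign in both cell types, 190 higher (0.905%) and 169 lower (0.805%). Of the 359 genes, 134 had been called in neither cell type alone. In 265 of the 359 (1.26% of all genes) the interval of the interaction lay within 2-fold, beside 96.7% of all genes. Where the effects are below 1 log2 unit, lying within that bound does not show that they are alike. The 359 became 516 without macrophages healthy replicate 5 and 235 without monocytes metastasis replicate 2. Among genes outside the shared 25 that agreed in size, Ly6a, the stem cell and interferon-inducible antigen Sca-1, had the largest average rise, 1.23 ± 0.20 (SE, limma adjusted p = 0.00108). It stood at 1.22 ± 0.27 in macrophages and 1.24 ± 0.29 in monocytes. Its arrays went from 8.81, 8.03, 7.68, 7.47 and 7.15 to 9.05, 8.63, 9.68, 8.58 and 9.27 in macrophages, where the groups overlapped, and from 5.42 to 6.06 up to 6.34, 7.15, 6.62 and 7.61 in monocytes, where they did not.

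Further average rises included genes of matrix breakdown, interferon response and redox balance. Mmp14, a membrane-bound matrix protease, rose by 1.13 ± 0.20 (SE) on average, with 1.15 ± 0.27 in macrophages and 1.11 ± 0.29 in monocytes, and monocytes metastasis replicate 1 at 3.81 lay within the healthy range. Gbp7, an interferon-induced GTPase, stood at 0.70 ± 0.19 and 0.67 ± 0.20, neither of which passed alone (limma adjusted p = 0.0675 and 0.203), and rose by 0.69 ± 0.14 on average (adjusted p = 0.0083). Gclm, a subunit of the enzyme that makes glutathione's precursor, rose by 0.68 ± 0.12, Ms4a6d by 0.76 ± 0.12, the semaphorin gene Sema6b by 0.75 ± 0.08 and the laminin gene Lamc1 by 0.72 ± 0.11. Among these genes outside the shared 25 that agreed in size, the largest average fall was that of Irf4, a transcription factor of dendritic and antibody-secreting cells, at -1.01 ± 0.17. It went from 5.92 to 6.95 down to 5.17, 6.23, 4.88, 4.94 and 5.30 in macrophages and from 5.35 to 6.02 down to 5.17, 4.25, 4.57 and 5.14 in monocytes. Slc46a3, a lysosomal transporter, fell by 0.77 ± 0.16, the protease gene Adam19 by 0.67 ± 0.13, the clock repressor gene Nr1d2 by 0.63 ± 0.11 and Fcgrt, the neonatal Fc receptor that recycles IgG, by 0.62 ± 0.12.

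Gene lists were read by their counts and medians beside the medians over all genes, which were 0.00 in macrophages, -0.01 in monocytes and 0.01 for the interaction. Of all genes 0.638% rose and 0.595% fell in macrophages, 0.395% rose and 0.119% fell in monocytes, and the interaction was positive in 52.7%. Members named from here on that were not called for the interaction or as shared were partly chosen after their values were seen. Among 22 genes of the acute phase and STAT3 response the median was 0.06 in macrophages and 0.30 in monocytes, and 19 of the 22 had a negative interaction, of which Lrg1 passed. In macrophages 3 rose (Saa3, Socs3 and Bcl3) and in monocytes 5 (Saa3, Lrg1, Lcn2, Pim1 and Socs3), beside 0.638% and 0.395% of all genes. Lcn2, a siderophore-binding protein of neutrophil granules and the acute phase, rose by 1.14 ± 0.22 (SE) in monocytes and stood at 0.04 ± 0.21 in macrophages, where it lay between 11.91 and 12.18 on all arrays (interaction -1.09 ± 0.31, limma adjusted p = 0.268). Bcl3, a nuclear I-kappaB protein, rose by 1.25 ± 0.19 in macrophages and stood at 0.79 ± 0.20 in monocytes. Of 20 interleukin-1 family and inflammasome genes 1 rose in macrophages and 3 in monocytes, with 16 negative interactions. Il1r2, the decoy receptor for interleukin-1, varied widely in monocytes from metastasis, at 4.48, 7.42, 9.52 and 5.06, and passed only on average (2.04 ± 0.43).

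Of 24 interferon gamma response genes none passed for the interaction, and 19 interactions were positive, beside 52.7% over all genes. In that list 4 rose in macrophages (Cxcl9, Cxcl11, Iigp1 and Cxcl10) and 1 in monocytes (Cxcl9), beside 0.638% and 0.395% of all genes, and the medians were 0.22 and 0.12. Cxcl11 rose by 2.34 ± 0.34 (SE) in macrophages and stood at 0.53 ± 0.36 in monocytes, whose arrays from metastasis lay at 3.76, 4.08, 5.00 and 6.18 (interaction 1.80 ± 0.49, limma adjusted p = 0.256). Without monocytes metastasis replicate 4 its interaction passed, at 2.28. Of 21 type I interferon response genes 3 rose in macrophages (Oas2, Ifi44 and Oasl2) and none in monocytes, read beside the same shares, with medians of 0.27 and 0.06. All 28 cell cycle genes had a positive interaction, and none passed; the medians were 0.40 in macrophages and 0.09 in monocytes, and 3 rose in macrophages. Mcm5, part of the replicative helicase, had the largest interaction of that list, 0.56 ± 0.15 (adjusted p = 0.249). The 27 oxidative phosphorylation genes had medians of 0.12 and 0.10, and none passed in either cell type or for the interaction.

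**Figure D5:**
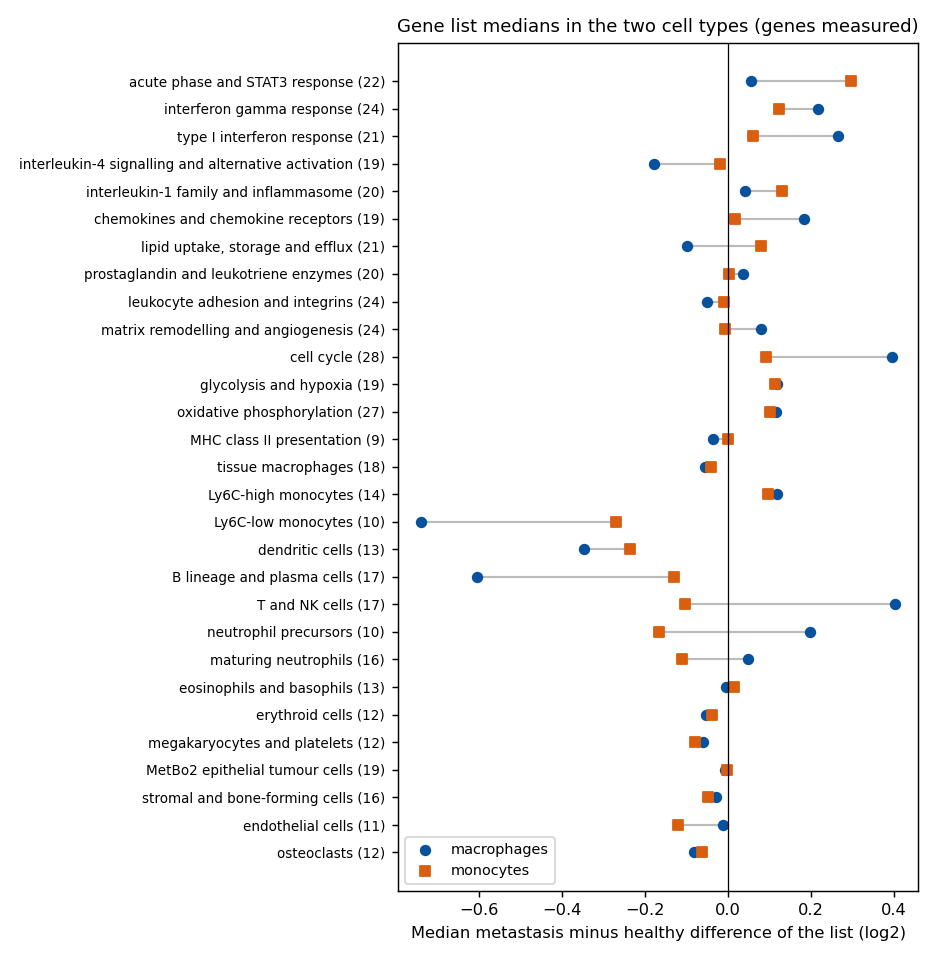
Median log2 difference between metastasis and healthy marrow of each gene list in macrophages (blue circles) and monocytes (orange squares), with the number of genes measured in brackets. The points lie close together for glycolysis and oxidative phosphorylation and farthest apart for T and NK cells, B lineage and plasma cells and Ly6C-low monocytes.

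Of 21 lipid genes 4 had a positive interaction, of which Lipg passed, and the median interaction was -0.32. In that list Lipg and Scd2 rose and Fabp4, Cd36, Lpl and Pparg fell in macrophages, beside 0.638% and 0.595% of all genes. In monocytes Dgat2 and Fabp7 rose, beside 0.395%. Fabp4, a fatty acid binding protein, went from 8.08, 7.78, 7.92, 8.18 and 5.85 to 4.67, 5.93, 5.05, 5.45 and 5.23 in macrophages, with healthy replicate 5 among the metastasis arrays. Its effects of -2.30 ± 0.32 (SE) and -0.61 ± 0.34 did not differ past the threshold (interaction -1.69 ± 0.47, limma adjusted p = 0.264), except without that array (-2.12). Dgat2, which makes triglycerides, rose by 1.80 ± 0.25 in monocytes and stood at 0.51 ± 0.24 in macrophages (interaction -1.29 ± 0.35, adjusted p = 0.249). Of 19 interleukin-4 and alternative activation genes 6 had a positive interaction and none passed, and the median interaction was -0.23. Il4ra rose in both cell types and Mrc1, Clec10a and Irf4 fell in macrophages, read beside the same shares. Mrc1, the mannose receptor, fell by 1.34 ± 0.20 in macrophages and stood at -0.93 ± 0.22 in monocytes, with no overlap in either. Il13ra1, which pairs with Il4ra, stood at -0.37 in macrophages and 0.65 in monocytes, and its interaction of -1.02 passed only without macrophages healthy replicate 5 (-1.19). The scavenger receptor gene Msr1 (interaction 0.20 ± 0.20), the chemokine receptor gene Ccr2 (0.01 ± 0.18), Flt1 (0.01 ± 0.27), Itgam (-0.18 ± 0.14) and Ccl2 (-0.56 ± 0.32) passed for neither cell type nor the interaction.

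Some marker lists of other cells also changed, but they hold genes already called above, so their counts are no separate evidence. Of 10 Ly6C-low monocyte genes 5 fell in macrophages and 1 in monocytes, beside 0.595% and 0.119% of all genes, with medians of -0.74 and -0.27, and the list mean was 8.48 to 9.42 in healthy macrophages against 7.94 to 8.54 in metastasis, and 6.85 to 7.27 against 6.47 to 6.85 in monocytes. Cx3cr1, Fabp4 and Cd36 belong to that list, and the 1 fall in monocytes was Cx3cr1. Of 13 dendritic cell genes, which include Cd209a and Irf4, 4 fell in macrophages and 1, Cd209a, in monocytes, read beside the same shares. The medians were -0.35 and -0.24. In macrophages the list means went from 5.72 to 6.29 into 5.09 to 5.99, and in monocytes from 5.11 to 5.24 into 4.75 to 5.00. T and NK cell genes, beside which Xcl1 stands, had medians of 0.40 in macrophages and -0.10 in monocytes over 17 genes. Of these Cd8a rose in macrophages, beside 0.638% of all genes. The list means in macrophages were 4.66 to 5.13 in healthy marrow and 4.85 to 5.70 in metastasis. Nkg7 stood at 0.48 ± 0.14 (SE) and -0.42 ± 0.15 (interaction 0.90 ± 0.20, limma adjusted p = 0.104), and its interaction passed without macrophages healthy replicate 5 (0.96).

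Of 16 maturing neutrophil genes, Wfdc21, Lcn2 and Il1f9 rose in monocytes and none was called lower, beside 0.395% and 0.119% of all genes. There 7 of the 16 had a positive value, beside 46.7% of all genes, and the median of the list was -0.11. The granule genes Ltf, Camp and Ngp stood at -0.52, -0.57 and -0.42 in monocytes, S100a9 at -0.04 ± 0.11 (SE) and Lcn2 at 1.14 ± 0.22. The mean of the list in monocytes was 7.03 to 7.71 in healthy marrow and 7.25 to 8.0 in metastasis, which overlapped. In macrophages it was 9.37 to 9.92 in healthy marrow and 9.99 to 10.2 in metastasis, without overlap. There Il1f9 and Stfa2l1 rose, beside 0.638% of all genes, with a list median of 0.05. Of 10 neutrophil precursor genes 1 rose in macrophages and none passed in monocytes, read beside the same shares, with medians of 0.20 and -0.17. None of 19 epithelial genes that could mark the tumour cells passed for the interaction. Lcn2, which the list also holds, was the 1 that rose, in monocytes, beside 0.395% of all genes. The epithelial list means lay between 4.02 and 4.42 on all arrays. The part of these cells in the shared and differing effects was not tested.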

How the data were processed

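RNA of sorted marrow macrophages and Ly6C+ monocytes was hybridised to Affymetrix mouse gene arrays, 1 array per sample. The authors deposited a table of log2 expression values per gene, made with the oligo package per the submitters' processing notes; the sources used here give no version, background correction or normalization, and the log2 scale was read from the range of values, 1.38 to 12.6. The number of arrays limits the precision. Array values were used as deposited. A linear model with 4 group means was fitted to all 20998 genes with limma 3.58.1 (lmFit, eBayes) in R 4.3.3, and contrasts gave the effect in each cell type, their difference (interaction) and their mean. P-values were adjusted by Benjamini-Hochberg over all genes, with 0.05 as the threshold. Effects agreed in size when the 95% interval of the interaction lay within 1 on the log2 scale. The model was tested on simulated data. Figures and motif searches used Python 3.11.15.

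Genes were named when called for the interaction under a current symbol, when called in both cell types with the same sign (at most 30), when among the largest average effects that agreed in size, or as list members called or largest. Members and lists were chosen with earlier results of these data known. RefSeq held 20573 symbols as current and 350 as synonyms, and 75 as neither. Alternatives were an intensity trend with robust spread, array weights, a weight per cell type, a filter on dim genes, quantile or median scaling, a 2-fold threshold, and each array left out. No file or array was left out of the reported fits.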

Additional observations from a re-analysis of the deposited data

Results flagged for a closer look

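The 13 genes whose metastasis effect differed between macrophages and monocytes by the interaction test are listed here with the macrophage minus monocyte effect. It was 3.6 for Lipg, 2.74 for Gm5483, 1.4 for Dnase1l3, 0.94 for Fam20c, 0.889 for Lmtk2 and 0.7 for Nedd4. It was -2.43 for Lrg1, -2.04 for Wfdc21, -1.83 for Zfp36l1, -1.72 for Tnfrsf17, -1.68 for Il18rap, -1.18 for Gcnt2 and -0.934 for Ms4a8a.

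Single arrays stood apart from their group in some of the 89 genes named, by Dixon's test of the gap to the nearest array as a share of the group's range, given in brackets. This held in 32 of 356 groups (8.99%), where chance gives about 1 in 20, and 8 of the 32 were on macrophages metastasis replicate 2 and 5 on macrophages healthy replicate 1. Macrophages healthy replicate 1 stood apart from its group as the highest in Ccl2 (0.725) and Cfb (0.779) and as the lowest in Il1f9 (0.86), Itgb3 (0.738) and Wfdc21 (0.794). Macrophages healthy replicate 4 stood apart from its group as the highest in Iigp1 (0.764) and Il1r2 (0.726). Macrophages healthy replicate 5 stood apart from its group as the lowest in Fabp4 (0.828) and Pparg (0.875). Macrophages metastasis replicate 1 stood apart from its group as the highest in Ms4a8a (0.842) and Ngp (0.876). Macrophages metastasis replicate 2 stood apart from its group as the highest in Jchain (0.8) and as the lowest in Cxcl11 (0.736), Cxcl9 (0.749), Gm5483 (0.77), Lbp (0.83), Ms4a6d (0.74), Oas2 (0.77) and Wfdc21 (0.825). Macrophages metastasis replicate 3 stood apart from its group as the highest in Oasl2 (0.896). Macrophages metastasis replicate 4 stood apart from its group as the highest in Il13ra1 (0.77) and as the lowest in Nedd4 (0.745). Monocytes healthy replicate 1 stood apart from its group as the lowest in Il1r2 (0.712). Monocytes healthy replicate 2 stood apart from its group as the highest in Ier3 (0.732). Monocytes healthy replicate 3 stood apart from its group as the lowest in Xcl1 (0.748). Monocytes healthy replicate 4 stood apart from its group as the highest in Ms4a8a (0.78). Monocytes metastasis replicate 1 stood apart from its group as the lowest in Cfb (0.844), Il4ra (0.887) and Mrpl52 (0.845). Monocytes metastasis replicate 3 stood apart from its group as the highest in F10 (0.873) and Mmp19 (0.957). Monocytes metastasis replicate 4 stood apart from its group as the highest in Cxcl10 (0.849).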

How the results depend on the processing

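The 13 interaction calls became 6 with an intensity trend and robust spread and 21 with array weights, and numbered 4 to 48 with 1 array left out. The 25 shared calls became 9 when a 2-fold effect was also required, and numbered 12 to 36 with 1 array left out, the lowest without monocytes metastasis replicate 2. The 359 average calls became 35 with the 2-fold requirement and numbered 235 to 516. Of shared calls agreeing in size, 15 became 2 with the 2-fold requirement and 8 with a bound of 1.5-fold, and numbered 6 to 27, with 27 without macrophages metastasis replicate 2. The cause of these moves was not tested. A weight per cell type gave 12 interaction calls but 108 in macrophages and 311 in monocytes. Over the single genes 4532 values kept their side of the threshold, 392 lost it, 14 gained it and none reversed. With the array least like its group left out in each group, chosen after the data were seen, there were 14 interaction, 27 shared and 341 average calls. No paired analysis was possible because the labels give no replicate numbers that groups share. Whether the background level or the upper end of the range limits changes of dim or bright genes was not tested.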
